A study of Mus musculus with 18 samples.

Results

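The 9 mouse plexin genes were Plxna1, Plxna2, Plxna3, Plxna4, Plxnb1, Plxnb2, Plxnb3, Plxnc1 and Plxnd1. They were followed in control fibroblasts and in fibroblasts given an shRNA against Hsf1 or Ssbp1, before and after heat shock. They are 9 of the 19938 gene symbols that had a probe set annotated to exactly 1 symbol on the array, and each plexin had 1 such probe set. The family was chosen from measured values, because Plxna4 lay far lower in both knockdowns than in control cells. The differences between a knockdown and control cells are therefore given for all 9 plexins as a description with no test, whereas heat effects and the difference between the knockdowns were tested.

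Plexins are single-pass cell-surface receptors for semaphorins. On ligand binding they rearrange the cytoskeleton and weaken adhesion to the matrix through a cytoplasmic domain that acts on small GTPases of the R-Ras and Rap families. Class A plexins mostly receive secreted class 3 semaphorins through neuropilins as co-receptors, class B plexins receive membrane-bound class 4 semaphorins and associate with receptor kinases such as MET and ERBB2, PLXNC1 receives SEMA7A, and PLXND1 receives SEMA3E. They are best known from the guidance of growing axons and vessels, and fibroblasts also use them in migration.

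The cells were immortalized mouse embryonic fibroblasts (MEF) of ICR background, grown in DMEM with serum. All cells had been infected with adenovirus for 2 h and were then kept in normal medium for 70 h. The virus expressed scrambled RNA (SCR), an shRNA against Hsf1 (HSF1-KD) or an shRNA against Ssbp1 (SSBP1-KD). HSF1 is the main transcription factor of the heat shock response, and SSBP1 is a mitochondrial single-stranded DNA-binding protein. All groups carried an adenovirus, and uninfected cells were not analysed here. Whether infection itself acted alike in all groups was not tested.

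Each kind of cell was either left at 37 °C (Cont) or heated at 42 °C for 1 h (HS), giving 6 groups of 3 arrays. Total RNA was hybridised to whole-transcript mouse arrays, and all values below are log2 signals. Because each probe set has its own response, signals were compared between groups within a gene and not between genes. Only for Plxnb3 and Plxnc1 is a percentile over all probe sets given, as a mark of a reading below the median probe set. The labels do not state whether the 3 arrays of a group were separate cultures. The error behind every p-value is therefore the variation among these arrays, which may be technical.

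Ssbp1 itself was read at 9.54, 9.36 and 9.36 in SCR Cont and at 9.02, 9.25 and 9.32 in SSBP1-KD Cont. Its arrays did not overlap, but the difference of -0.22 missed the threshold (limma, adjusted p = 0.0555). After heat shock Ssbp1 was lower in SSBP1-KD by a log2 difference of -0.41 (adjusted p = 0.00155). No probe set carried Hsf1 alone, so the HSF1 knockdown was not checked here. The 18 arrays had median signals between 7.88 and 7.94. The first SSBP1-KD Cont array stood apart from the others, with the highest weight, 0.727, on the largest component of the deviations from the group means. Without it the Plxna4 difference between SSBP1-KD Cont and SCR Cont was -2.14 in place of -2.11, and the counts of plexins called were 8 between the knockdowns in Cont and 0 for heat in SSBP1-KD, as with it. All 10 fibroblast markers on the list had a probe set, and their summed log2 signal ranged over the groups from 107 in SSBP1-KD HS to 110.1 in SCR Cont. The summed signal of 7 neuronal and glial markers ranged from 53.5 in SCR Cont to 54.2 in HSF1-KD HS, that of 5 endothelial markers from 33.3 in SCR Cont to 34.2 in SSBP1-KD Cont, that of 5 epithelial markers from 38.6 in SSBP1-KD HS to 39.4 in HSF1-KD Cont and that of 5 haematopoietic markers from 37.1 in SCR Cont to 38.6 in SSBP1-KD HS. The part of these shifts in the plexin values was not tested.

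Plxna4, a class A receptor for SEMA3A with neuropilin-1 and for class 6 semaphorins, was the plexin whose group means spanned the widest range, 2.11. Its log2 signals were 10.02, 10.07 and 10.49 in SCR Cont and 9.60, 10.25 and 10.27 in SCR HS. They were 8.56, 8.73 and 8.67 in HSF1-KD Cont and 8.50, 8.49 and 8.44 in HSF1-KD HS. They were 8.14, 8.06 and 8.04 in SSBP1-KD Cont and 8.02, 8.11 and 8.20 in SSBP1-KD HS. All 12 knockdown arrays lay below all 6 SCR arrays, and the 6 SSBP1-KD arrays lay below the 6 HSF1-KD arrays. The first SCR HS array was the lowest of the control arrays. In a bulk RNA sample, a smaller number of cells with a transcript and less transcript per cell cannot be told apart.

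In unheated cells the mean of Plxna4 was 10.19 ± 0.25 (SD, n = 3) in SCR, 8.65 ± 0.085 in HSF1-KD and 8.08 ± 0.053 in SSBP1-KD. The log2 difference from SCR was -1.54 (SE 0.15) in HSF1-KD and -2.11 (SE 0.15) in SSBP1-KD, so that the signal stood at 34.4% and 23.1% of the SCR level. After heat shock the differences were -1.56 and -1.93, which left 33.9% and 26.2% of the SCR level. Ordered from the most negative difference, Plxna4 ranked 3 of 19938 symbols in HSF1-KD Cont, 15 in HSF1-KD HS, 3 in SSBP1-KD Cont and 8 in SSBP1-KD HS. These ranks describe the values that chose the family. The comparisons of HSF1-KD and of SSBP1-KD with SCR use the same SCR arrays.

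**Figure D1:**
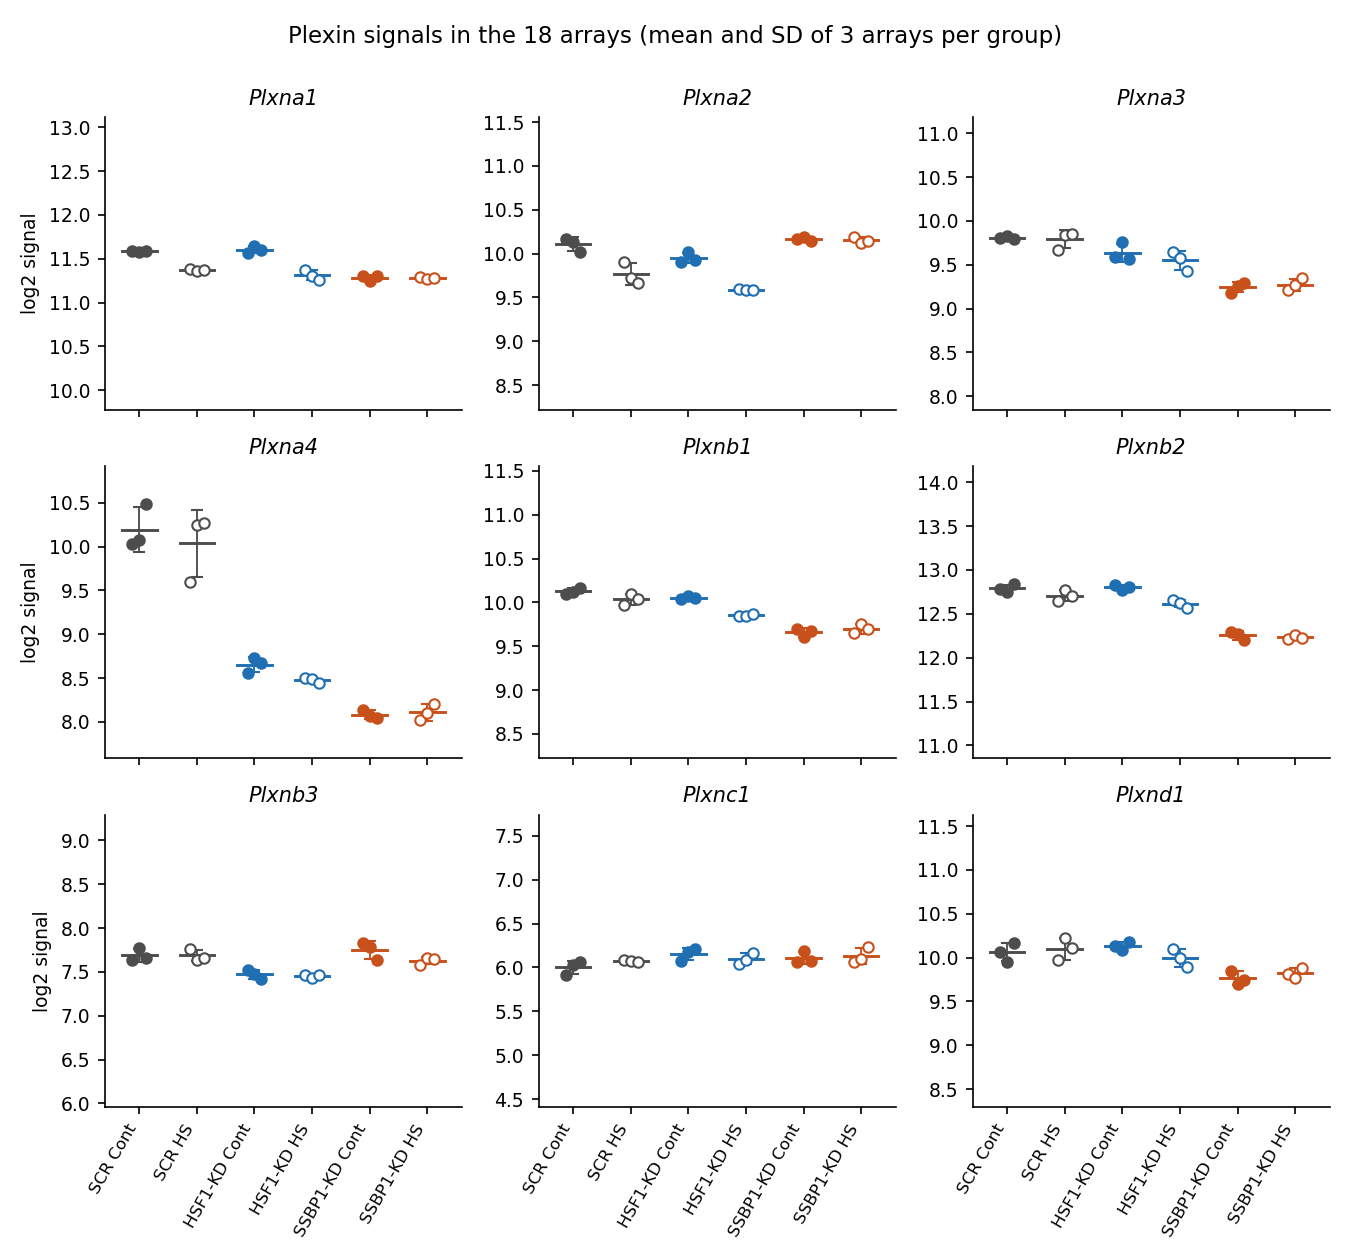
Log2 signal (vertical axis) of each plexin in the 18 arrays by group (horizontal axis), with filled points for Cont, open points for HS, horizontal lines for the means and bars for the SD of 3 arrays; every panel spans the same number of log2 units around its own gene. Plxna4 falls from means of 10.19 and 10.04 in SCR to 8.65 and 8.48 in HSF1-KD and 8.08 and 8.11 in SSBP1-KD, while the group means of the other plexins span at most 0.58.

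The other class A plexins did not follow Plxna4 together. Plxna3, a receptor for SEMA3F with neuropilin-2, had means of 9.81 ± 0.015 in SCR Cont, 9.64 ± 0.10 in HSF1-KD Cont and 9.24 ± 0.056 in SSBP1-KD Cont (SD, n = 3). Its signal stood at 88.8% of the SCR level in HSF1-KD and at 67.5% in SSBP1-KD, with no overlap of arrays in either comparison. After heat shock it stood at 84.7% and 70.0%, again without overlap. Plxna3 was thus the plexin with the second most negative difference in SSBP1-KD under both temperatures.

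Plxna1, which like the other class A plexins pairs with neuropilins, was read at 11.59, 11.57 and 11.58 in SCR Cont. Its signals were 11.57, 11.65 and 11.59 in HSF1-KD Cont, overlapping SCR, and 11.30, 11.25 and 11.30 in SSBP1-KD Cont, below every SCR array. The SSBP1-KD signal stood at 81.2% of the SCR level. After heat shock the SCR arrays fell to 11.39, 11.36 and 11.37, and those of SSBP1-KD remained at 11.29, 11.27 and 11.28. The distance of SSBP1-KD from SCR was then -0.091 in place of -0.30, still with no overlap.

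Plxna2, a receptor for class 6 as well as class 3 semaphorins, was not lower in SSBP1-KD. It was read at 10.17, 10.13 and 10.02 in SCR Cont and at 10.16, 10.19 and 10.15 in SSBP1-KD Cont, so that these groups overlapped. In HSF1-KD Cont it was read at 9.91, 10.02 and 9.93, which touched the lowest SCR array, and stood at 89.7% of the SCR level. In heated cells its signals were 9.91, 9.72 and 9.66 in SCR, 9.60, 9.59 and 9.58 in HSF1-KD and 10.19, 10.12 and 10.15 in SSBP1-KD. The SSBP1-KD arrays were all above, and the HSF1-KD arrays all below, the heated SCR arrays, with levels of 130.9% and 88.5% of SCR.

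Among class B plexins, Plxnb2, a receptor for SEMA4C, was read at 12.78, 12.75 and 12.83 in SCR Cont and at 12.83, 12.77 and 12.81 in HSF1-KD Cont. Its signals in SSBP1-KD Cont were 12.29, 12.27 and 12.20. Only the SSBP1-KD arrays stood apart, at 69.0% of the SCR level. In heated cells the signals were 12.64, 12.77 and 12.71 in SCR, 12.66, 12.62 and 12.57 in HSF1-KD and 12.21, 12.26 and 12.22 in SSBP1-KD. HSF1-KD overlapped SCR at 93.8% of its level, and SSBP1-KD lay below it at 71.8%.

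Plxnb1, the receptor for SEMA4D, had means of 10.13 ± 0.039 in SCR Cont, 10.05 ± 0.019 in HSF1-KD Cont and 9.66 ± 0.048 in SSBP1-KD Cont (SD, n = 3). Its arrays did not overlap with those of SCR in any of the 4 comparisons, and its level lay between 72.3% of SCR, in SSBP1-KD Cont, and 95.1%, in HSF1-KD Cont. Plxnb3, a receptor for SEMA5A, went the other way between the knockdowns. Its probe set stood at percentile 44.5 of all probe sets by mean signal. Its means were 7.69 ± 0.070 in SCR Cont, 7.47 ± 0.050 in HSF1-KD Cont and 7.75 ± 0.10 in SSBP1-KD Cont. Its HSF1-KD arrays lay below those of SCR before and after heat shock, at 86.1% and 85.1% of the SCR level, and its SSBP1-KD arrays overlapped SCR both times.

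Plxnc1, the SEMA7A receptor, varied least, with all 18 arrays between 5.92 and 6.23. Its probe set stood at percentile 17.0 of all probe sets by mean signal. Its values may thus lie near the background, which was not analysed here. Its group means spanned 0.15, against an SD within groups of 0.067. Its unheated arrays lay above SCR in both knockdowns, at 111.1% of the SCR level with HSF1-KD and 107.4% with SSBP1-KD, but overlapped SCR after heat shock. Plxnd1, the SEMA3E receptor known from vessel patterning, had means of 10.06 ± 0.11 in SCR Cont, 10.13 ± 0.044 in HSF1-KD Cont and 9.77 ± 0.078 in SSBP1-KD Cont. It overlapped SCR in HSF1-KD and lay below it in SSBP1-KD, at 81.4% of the SCR level before and 82.5% after heat shock.

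Counted over the family, the arrays of 5 of the 9 plexins did not overlap with SCR in HSF1-KD Cont, 1 above and 4 below, where 39.7% of all symbols did not overlap. In HSF1-KD HS these were 5 plexins, all below, beside 40.9% of all symbols. In SSBP1-KD Cont they were 7 plexins, 1 above and 6 below, beside 44.2%, and in SSBP1-KD HS they were 7 plexins, 1 above and 6 below, beside 45.3%. Because the family was chosen on these contrasts, nothing is read from these counts. The median log2 difference of the 9 plexins was -0.073, -0.18, -0.30 and -0.28 in the same order, and that of all symbols was 0.033, 0.031, 0.051 and 0.025.

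The order of the 6 group means differed from gene to gene. For Plxna4 it ran from SCR Cont at 10.19 and SCR HS at 10.04, which overlapped, through HSF1-KD Cont at 8.65 and HSF1-KD HS at 8.48 to SSBP1-KD HS at 8.11 and SSBP1-KD Cont at 8.08, which overlapped. SSBP1-KD gave the 2 lowest means of Plxna1, Plxna3, Plxna4, Plxnb1, Plxnb2 and Plxnd1. SSBP1-KD gave the 2 highest means of Plxna2, at 10.17 and 10.15, followed by SCR Cont at 10.11, and these 3 neighbours overlapped. HSF1-KD gave the 2 lowest means of Plxnb3. In Plxnc1 every neighbour in the order overlapped with the next.

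Set against each other, the knockdowns differed in most plexins. The differences were taken between the knockdowns without the SCR arrays, and these differences were not used to choose the family. The Plxna4 signals of both knockdowns did enter that choice, so the tests of Plxna4 here use values that the choice also used. The SCR arrays do enter the shared estimate of spread behind the intervals and p-values. In unheated cells 8 of the 9 plexins passed the threshold, an adjusted p under 0.05 over all probe sets (limma), where 29.4% of all symbols did. Plxna1, Plxna3, Plxna4, Plxnb1, Plxnb2 and Plxnd1 were lower in SSBP1-KD than in HSF1-KD, and Plxna2 and Plxnb3 were higher.

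The difference of Plxnb2 was -0.55 (95% confidence interval -0.64 to -0.46, adjusted p = 5.33e-07). Plxna4 differed by -0.57 (-0.89 to -0.25, adjusted p = 0.0111), a wider interval since its SCR arrays spread more and all groups share 1 estimate of the spread. Plxna3 differed by -0.40 (adjusted p = 0.000566), Plxnb1 by -0.39 (1.14e-05), Plxnd1 by -0.36 (0.00179) and Plxna1 by -0.32 (1.83e-05). In each of these 6 genes all 3 SSBP1-KD arrays lay below all 3 HSF1-KD arrays.

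Plxnb3 was higher in SSBP1-KD Cont by 0.27 (95% confidence interval 0.16 to 0.39, adjusted p = 0.00192), and Plxna2 by 0.22 (0.089 to 0.34, adjusted p = 0.0149). Both calls were lost when only the arrays compared entered the fit, at adjusted p = 0.0645 for Plxnb3 and 0.0673 for Plxna2, within ranges over the alternatives of 0.000525 to 0.0927 and 0.00379 to 0.0673. Plxna2 was also lost without HSF1-KD Cont array 1 or 3 (adjusted p = 0.0547 and 0.0519). Plxnc1 differed by -0.050 (-0.17 to 0.075, adjusted p = 0.608). The median difference of the 9 plexins was -0.36, and that of all symbols was 0.018.

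After heat shock 5 of the 9 plexins differed between the knockdowns, beside 25.7% of all symbols. Plxna2 was higher in SSBP1-KD by 0.56 (95% confidence interval 0.44 to 0.69, adjusted p = 7.06e-06), and Plxnb2 was lower by a log2 difference of -0.39 (-0.48 to -0.29, 1.54e-05). These calls held in all 26 alternatives. Plxna3 differed by -0.28 (adjusted p = 0.00934), Plxnb1 by -0.16 (0.0197) and Plxnb3 by 0.17 (0.0380). The calls of the last 3 depended on the method and on single arrays. The unmoderated test that the methods name called neither Plxna3 (adjusted p = 0.0999) nor Plxnb1. Plxnb1 was also lost with only the arrays compared and with quantile normalization repeated, and Plxnb3 with a trended and robust prior. Plxna3 missed the threshold without the first HSF1-KD HS array (adjusted p = 0.0525; range over the alternatives 0.00319 to 0.0999). Plxnb1 missed it without HSF1-KD HS array 2 or 3 or SSBP1-KD HS array 1 or 3 (adjusted p up to 0.0914, range from 0.00652). Plxnb3 missed it without any 1 of the HSF1-KD HS arrays or without SSBP1-KD HS array 2 or 3 (adjusted p up to 0.115, range from 0.0187).

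Plxna4 differed by -0.37 in heated cells (95% confidence interval -0.69 to -0.049, adjusted p = 0.107), without overlap of the arrays. It passed in 3 of 26 alternatives. These were the fit of only the arrays compared (adjusted p = 0.00924), the unmoderated test that the methods name, and the fit without the first SCR HS array (adjusted p = 0.0146). The low value of that array widens the shared estimate of spread. Over the alternatives the adjusted p ran from 0.00924 to 0.261. Plxnd1 differed by -0.17 (-0.33 to -0.018, adjusted p = 0.121) and Plxna1 by -0.031 (-0.11 to 0.050, adjusted p = 0.685). The count of plexins called ranged from 3 to 6 when 1 array was left out: it was 3 without any 1 of the HSF1-KD HS arrays or SSBP1-KD HS array 3, and 6 without the first SCR HS array. Whether the difference between the knockdowns itself changed with heat was not tested.

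**Figure D2:**
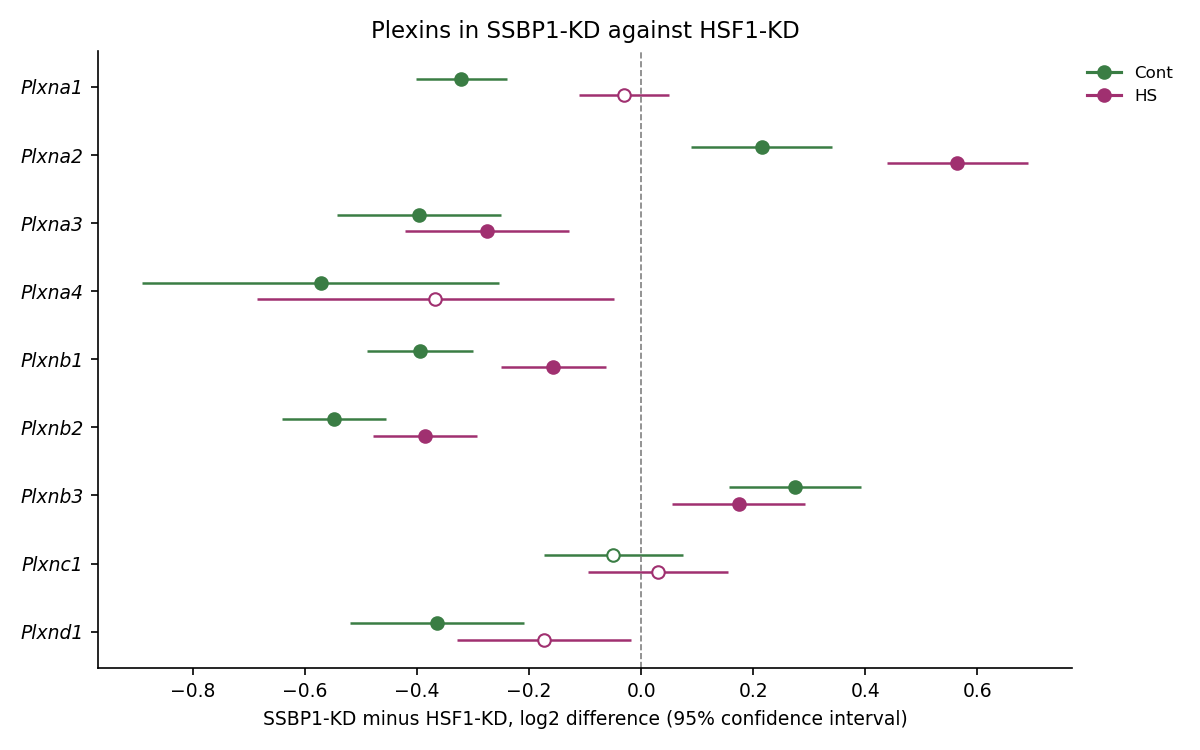
Log2 difference SSBP1-KD minus HSF1-KD (horizontal axis) of each plexin (vertical axis) in Cont and in HS, with 95% confidence intervals as lines and filled points for adjusted p under 0.05. In Cont 6 plexins with filled points lie below 0 and Plxna2 and Plxnb3 above it, and in HS Plxna2 stands at 0.56 and Plxnb2 at -0.39.

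Heat shock lowered single plexins in SCR and HSF1-KD, and with 9 genes nothing about the family is read from the counts. In SCR 2 of the 9 plexins passed the threshold, both lower, beside 16.0% of all symbols. Plxna1 fell from 11.58 ± 0.010 to 11.37 ± 0.013 (SD, n = 3), a log2 difference of -0.21 (95% confidence interval -0.29 to -0.13; limma, adjusted p = 0.00138), and no heated array reached an unheated one. Plxna2 fell from 10.11 ± 0.079 to 9.76 ± 0.13, a difference of -0.34 (-0.47 to -0.22, adjusted p = 0.000965), also without overlap. The call of Plxna2 was lost under the unmoderated test that the methods name (adjusted p = 0.1015, range over the alternatives 0.000143 to 0.1015). Plxna4 changed by -0.16 in SCR (-0.47 to 0.16, adjusted p = 0.604), with overlapping arrays, and the intervals of the other plexins included 0.

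In HSF1-KD 4 of the 9 plexins passed, all lower after heat shock, beside 21.4% of all symbols. Plxna2 differed by -0.36 (95% confidence interval -0.49 to -0.24, adjusted p = 0.000607) and Plxna1 by -0.29 (-0.37 to -0.21, 0.000111). Plxnb1 differed by -0.20 (-0.29 to -0.10, 0.00540) and Plxnb2 by -0.19 (-0.28 to -0.092, 0.00729). In each of these genes the 3 heated arrays lay below the 3 unheated ones. The call of Plxnb2 was lost when only the HSF1-KD arrays entered the fit (adjusted p = 0.0531; range over the alternatives 0.00157 to 0.0531). All 9 differences in HSF1-KD were below 0, and their median was -0.18, beside -0.0092 for all symbols.

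In SSBP1-KD no plexin passed the threshold by limma, beside 6.90% of all symbols. An unadjusted p under 0.05 was found for 0 plexins, and the unmoderated test that the methods name called 0 as well. Plxna1 changed by 0.00040 (95% confidence interval -0.080 to 0.081), from 11.28 ± 0.031 to 11.28 ± 0.0081, and Plxna2 by -0.012 (-0.14 to 0.11). The SCR estimates of -0.21 and -0.34 have errors of their own, and the direct tests of these differences did not pass (limma, adjusted p = 0.130 and 0.125). The largest change was that of Plxnb3, -0.12 (-0.24 to 0.00010, adjusted p = 0.223). Plxna4 stood at 8.08 ± 0.053 before and 8.11 ± 0.093 after heat shock.

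The difference in the heat effect between kinds of cell was tested directly. For SSBP1-KD against SCR, 0 of the 9 plexins passed by limma, beside 0.492% of all symbols. The unmoderated test, here a linear contrast of the groups compared, called 1, and 2 had an unadjusted p under 0.05 by limma. These 2 were Plxna1, at 0.21 (95% confidence interval 0.095 to 0.32, adjusted p = 0.130), and Plxna2, at 0.33 (0.15 to 0.51, adjusted p = 0.125). Over the alternatives the adjusted p of Plxna1 ran from 0.0138 to 0.278 and that of Plxna2 from 0.0202 to 0.292, and each passed in a minority of them, Plxna1 in 3 of 26 and Plxna2 in 2 of 26. Plxna2 passed without the first SCR HS array, when the count of plexins was 1. The passing of the threshold in SCR and not in SSBP1-KD was thus not shown to be a difference between these cells.

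For HSF1-KD against SCR, 0 plexins passed by limma, beside 0.346% of all symbols. The unmoderated contrast called 0, and 0 had an unadjusted p under 0.05 by limma. The differences of all 9 lay below 0, between -0.17 for Plxnd1 and -0.016 for Plxnb3, with adjusted p-values from 0.706 to 0.990. The SCR arrays are shared by both of these comparisons.

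**Figure D3:**
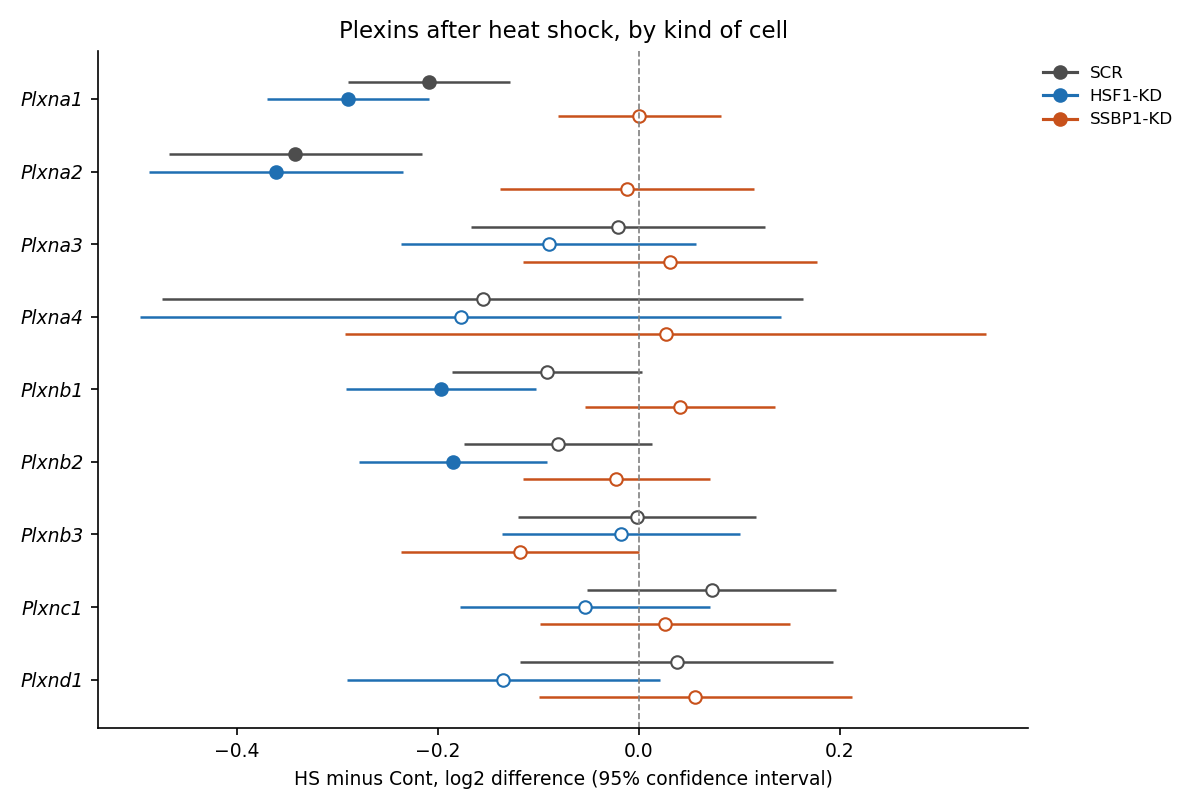
Log2 difference HS minus Cont (horizontal axis) of each plexin (vertical axis) in SCR, HSF1-KD and SSBP1-KD, with 95% confidence intervals as lines and filled points for adjusted p under 0.05. Plxna1 and Plxna2 stand at -0.21 and -0.34 in SCR, -0.29 and -0.36 in HSF1-KD and near 0 in SSBP1-KD, and Plxna4 has the widest intervals.

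The promoter of Plxna2 is shown because Plxna2 had the largest heat effect of the family in SCR and in HSF1-KD. The first 200 bases of its 300-base promoter entry, at chr1:194619579-194619778 on the plus strand of GRCm38.p6 (RefSeq), are given 5′ to 3′ with GAA and TTC, the unit of the heat shock element on either strand, in capitals.
Plxna2: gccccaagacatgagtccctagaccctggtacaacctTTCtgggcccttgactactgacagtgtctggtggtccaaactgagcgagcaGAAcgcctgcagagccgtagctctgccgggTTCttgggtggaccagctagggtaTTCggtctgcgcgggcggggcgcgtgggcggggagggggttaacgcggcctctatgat
HSF1 binds alternating units spaced by 2 bases. The stretch held 1 GAA and 3 TTC. Promoter entries of 300 bases were matched for 7 of the 9 plexins, 8 entries in all, and no entry was matched for Plxna1 and Plxna4. In the 8 entries 0 held 2 adjoining units (GAANNTTC or TTCNNGAA), a pattern found in 15.1% of 32851 promoter entries of the same length, and 0 held 3 units (GAANNTTCNNGAA or TTCNNGAANNTTC), which 0.603% of all entries held. The 3-unit patterns contain the 2-unit ones, and a search for these letters says nothing about binding.

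Over the 18 arrays, the symbols whose signals were most like those of Plxna4 were Plekhg5 (Pearson r = 0.993), Celsr2 (r = 0.992), Pax8 (r = 0.991), Gas1 (r = 0.990) and Flrt1 (r = 0.990). These values describe the same 18 arrays, which share 6 group means, and carry no p. Gas1, a membrane protein first found in growth-arrested cells, differed from SCR by -1.07 in HSF1-KD Cont and -1.51 in SSBP1-KD Cont, and the other 4 symbols by -0.36 to -0.65 and -0.50 to -0.98. Among the plexins the likeness to Plxna4 ran from 0.877 for Plxna3 and 0.833 for Plxnb1 through 0.720 for Plxnb2, 0.662 for Plxnd1, 0.523 for Plxna1 and 0.226 for Plxnb3 to -0.202 for Plxna2 and -0.477 for Plxnc1.

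The RefSeq genes on either side of Plxna4 on chromosome 6 were read as well, a choice made after the values were seen. Podxl, which encodes the sialomucin podocalyxin, was lower than SCR by log2 differences of -0.59 in HSF1-KD Cont and -1.30 in SSBP1-KD Cont (limma, adjusted p = 0.00155 and 1.21e-06). Chchd3, a gene of the mitochondrial inner membrane, was higher in SSBP1-KD Cont by 0.17 (adjusted p = 0.0256) and differed by -0.013 in HSF1-KD Cont (adjusted p = 0.911). Exoc4 and 1700012A03Rik passed the threshold in neither knockdown.

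The genes that act with plexins were followed with a list of 55 measured ligands, co-receptors, GTPases and effectors. Against SCR, 21 of the 55 passed in HSF1-KD Cont, 4 higher and 17 lower, beside 21.0% of all symbols, and 24 passed in HSF1-KD HS, 4 higher and 20 lower, beside 23.7%. In SSBP1-KD 34 passed in Cont, 7 higher and 27 lower, beside 31.1%, and 36 in HS, 10 higher and 26 lower, beside 28.7%. Without the second HSF1-KD HS array the count in HSF1-KD HS was 16, and without the first SSBP1-KD Cont array that in SSBP1-KD Cont was 28. The median difference of the list in these 4 comparisons was -0.080, -0.067, -0.13 and -0.097, beside 0.033, 0.031, 0.051 and 0.025 for all symbols.

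The secreted class 3 semaphorins, ligands of the class A plexins and PLXND1, held 4 of 7 members that were lower in HSF1-KD Cont, beside 21.0% of all symbols called, and 5 of 7 in SSBP1-KD Cont, beside 31.1%, with 0 higher in either. Sema3d was read at 9.35, 9.46 and 9.64 in SCR Cont, at 8.58, 8.35 and 8.48 in HSF1-KD Cont and at 8.24, 8.30 and 8.14 in SSBP1-KD Cont. Its arrays were far apart from SCR in both knockdowns, with differences of -1.01 and -1.26 (adjusted p = 2.96e-06 and 2.80e-07). Sema3a, a ligand received through PLXNA4 and neuropilin-1, differed by 0.11 in HSF1-KD Cont (adjusted p = 0.236) and by -0.94 in SSBP1-KD Cont (adjusted p = 1.12e-07). Its difference between the knockdowns was -1.05 (adjusted p = 2.73e-08). Sema3c and Sema3f were lower in both knockdowns, with differences of -0.34 and -0.39 under HSF1-KD and of -0.97 and -0.74 under SSBP1-KD.

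Of the 6 class 4 semaphorins, ligands of class B plexins, 1 was lower in HSF1-KD Cont (Sema4g, -0.31), a share of 16.7% beside 21.0% of all symbols called. In SSBP1-KD Cont 4 were lower and 1 higher, beside 31.1%. Sema4c and Sema4d, the ligands of PLXNB2 and PLXNB1, differed by -0.61 and -0.59 in SSBP1-KD (adjusted p = 3.67e-06 and 5.52e-05), and Sema4f by 0.54 (adjusted p = 0.000189). Of the 7 semaphorins of classes 5, 6 and 7, 1 was higher and 2 lower in HSF1-KD Cont, beside 21.0% of all symbols called. In SSBP1-KD Cont 3 were higher and 2 lower, beside 31.1%. Sema6c and Sema6d were lower in both knockdowns, with differences of -0.39 and -0.56 in HSF1-KD Cont and of -0.76 and -0.60 in SSBP1-KD Cont. Sema6b was higher in HSF1-KD Cont by 0.31 (limma, adjusted p = 0.00619), and Sema6a was higher in SSBP1-KD Cont by 0.31 (adjusted p = 0.00439). Sema7a, the PLXNC1 ligand, was higher by 0.23 in SSBP1-KD Cont (adjusted p = 0.00773).

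**Figure D4:**
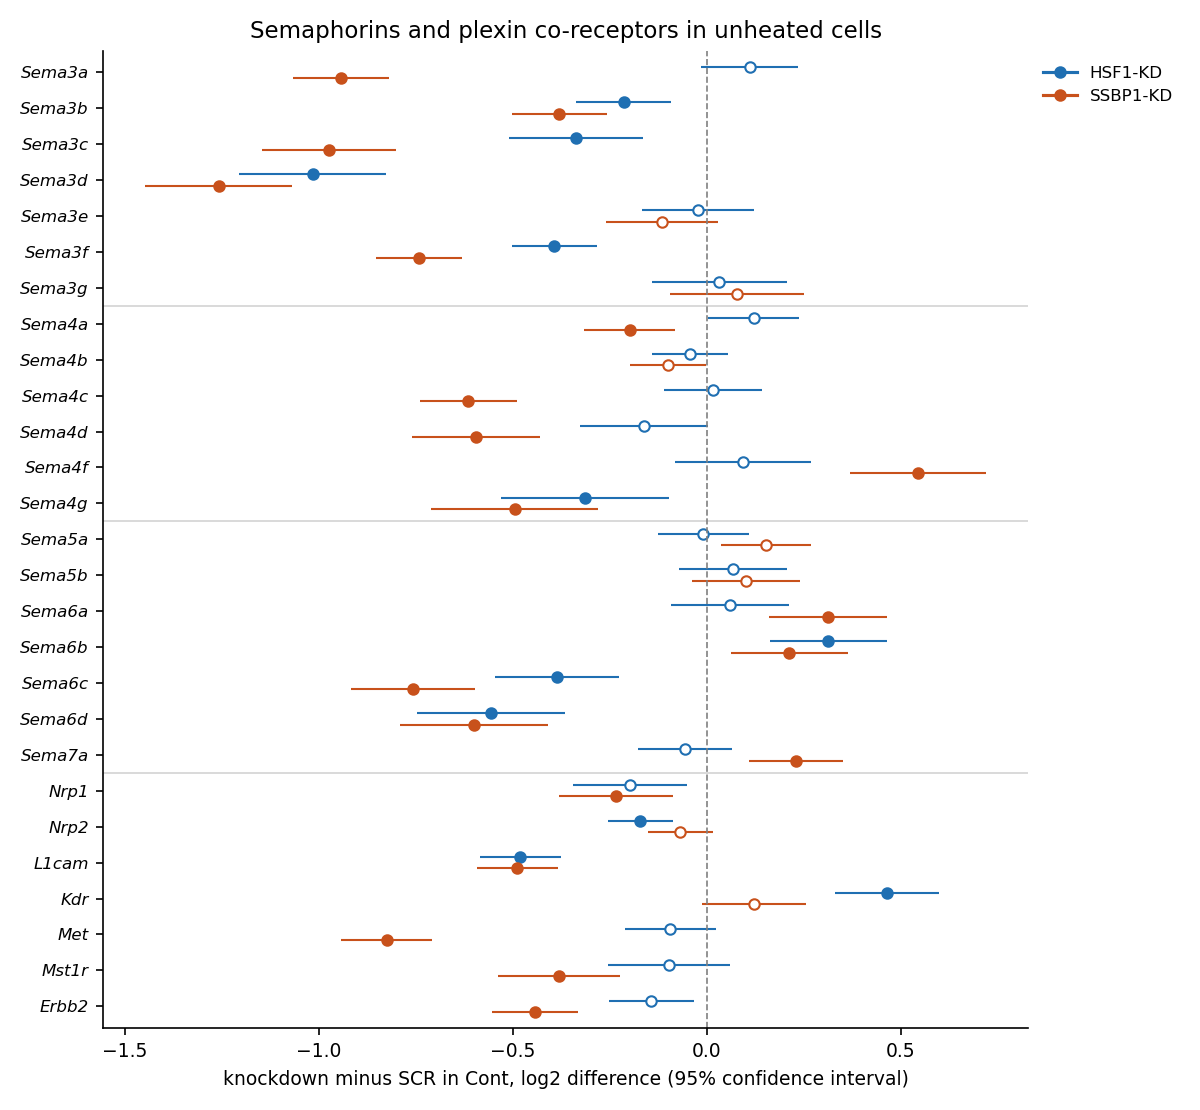
Log2 difference from SCR in Cont (horizontal axis) of 20 semaphorins and 7 co-receptors or receptor kinase partners (vertical axis, grey lines between the groups of the list) in HSF1-KD and SSBP1-KD, with 95% confidence intervals as lines and filled points for adjusted p under 0.05. Sema3d stands at -1.01 and -1.26, and Sema3a and Met stand at -0.94 and -0.83 in SSBP1-KD.

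Of the 7 co-receptors and kinase partners, 1 was higher and 2 lower in HSF1-KD Cont, beside 21.0% of all symbols called. In SSBP1-KD Cont 0 were higher and 5 lower, beside 31.1%. L1cam, an adhesion molecule that binds neuropilin-1, was lower in both, with differences of -0.48 in HSF1-KD Cont and -0.49 in SSBP1-KD Cont. Nrp2 was lower in HSF1-KD Cont, with a difference of -0.17 (limma, adjusted p = 0.00704). Met and Erbb2, the kinases that class B plexins associate with, were lower in SSBP1-KD Cont, with differences of -0.83 and -0.44 (adjusted p = 2.00e-07 and 2.14e-05). Kdr, a VEGF receptor, was higher in HSF1-KD Cont by 0.47 (adjusted p = 0.000132).

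Of the 15 GTPases and their regulators, 1 was higher and 6 lower in HSF1-KD Cont, beside 21.0% of all symbols called. In SSBP1-KD Cont 1 was higher and 5 lower, beside 31.1%. Mras was lower in both, with differences of -0.65 and -0.24 (limma, adjusted p = 4.24e-07 and 0.000966). Rac1 and Rnd3 were lower in HSF1-KD Cont, at -0.51 and -0.37 (adjusted p = 4.24e-07 and 0.000442). Rras was lower in SSBP1-KD Cont, at -0.39 (adjusted p = 7.24e-05). Of the 13 cytoplasmic effectors, 1 was higher and 2 lower in HSF1-KD Cont, beside 21.0% of all symbols called. In SSBP1-KD Cont 2 were higher and 6 lower, beside 31.1%. Dpysl3, of the collapsin response mediator family, was lower in HSF1-KD Cont, at -0.46, and higher in SSBP1-KD Cont, at 0.37. Mical2 was lower in HSF1-KD Cont, at -0.46, and Mical1 and Cdk5 were lower in SSBP1-KD Cont, at -0.44 and -0.41. Between the knockdowns 27 of the 55 genes passed in Cont, 10 higher and 17 lower in SSBP1-KD, beside 29.4% of all symbols, and 27 in HS, 14 higher and 13 lower, beside 25.7%. The 27 genes are 49.1% of the list.

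Heat shock raised 7 and lowered 7 of the 55 genes in SCR, raised 9 and lowered 12 in HSF1-KD, and raised 4 and lowered 2 in SSBP1-KD. These are 25.5%, 38.2% and 10.9% of the list, beside 16.0%, 21.4% and 6.90% of all symbols, so that SSBP1-KD had the lowest share both in the list and over the array. Without the first SCR Cont array the SCR count of 14 fell to 9, and without the second SSBP1-KD HS array the SSBP1-KD count of 6 fell to 2. Without SSBP1-KD HS array 1 or SSBP1-KD Cont array 2 it was 3. Arhgef11 and Arhgef12, the exchange factors that bind class B plexins, were higher after heat in all 3 kinds of cell, by 0.19 and 0.25 in SCR, and Sema4b was lower in all 3, with a difference of -0.47 in SCR. The co-receptors Nrp1 and Nrp2 were lower in SCR, with differences of -0.25 and -0.18, and in HSF1-KD, with differences of -0.21 and -0.32. Rnd3, of the GTPase part of the list, was higher after heat by 0.54 in SCR (adjusted p = 1.78e-05), by 0.17 in HSF1-KD and by a value short of the threshold, 0.13, in SSBP1-KD (adjusted p = 0.0485 and 0.189). In the main fit it alone of the 55 differed in heat effect between SSBP1-KD and SCR, beside 0.492% of all symbols. Its difference by the direct test was -0.41 (limma, adjusted p = 0.0472). This call was not stable: no gene of the list passed in most fits that left out 1 array. No gene of the list passed with only the arrays compared or under the unmoderated contrast either. Between HSF1-KD and SCR 9 genes had an unadjusted p under 0.05, but 0 passed by limma, beside 0.346% of all symbols. In the alternatives these counts went from 0 to 2 and from 0 to 1.

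Receptors and ligands of the other guidance families were counted beside the plexins, 36 measured genes of the SLIT, netrin and ephrin systems. In HSF1-KD Cont 2 were higher and 9 lower than SCR, 30.6% of the list beside 21.0% of all symbols, and in SSBP1-KD Cont 4 were higher and 14 lower, 18 of 36 genes beside 31.1%. Slit3 differed by -0.60 and -1.50 (adjusted p = 0.000523 and 1.59e-07), and Efnb1, encoding ephrin-B1, by -0.75 and -0.90 (8.26e-06 and 9.70e-07). In SCR 2 rose and 7 fell with heat, in HSF1-KD 1 rose and 11 fell, and in SSBP1-KD 1 rose and 0 fell. These are 25.0%, 33.3% and 2.78% of the list, beside 16.0%, 21.4% and 6.90% of all symbols. After heat shock 13 were lower and 0 higher than SCR in HSF1-KD, 36.1% beside 23.7%, and 12 were lower and 3 higher in SSBP1-KD, 41.7% beside 28.7%.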

How the data were processed

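Total RNA (200 ng) of 18 samples was labelled and hybridised to Affymetrix whole-transcript mouse arrays. Per the labels, the authors processed the scans with RMA in Partek 6.5 and deposited 1 log2 signal per probe set and array. Scanner intensities were not used here, no detection calls were used, and slide and scan date are not given in the sources used here. Of 35557 probe sets, 21789 carried exactly 1 symbol in the platform annotation, 1621 several and 12147 none; 21698 of the 21789 were matched by gene ID to RefSeq (GRCm38.p6), and the brightest probe set stood for each of 19938 symbols. All probe sets entered 1 limma fit (version 3.58.1, R 4.3.3) with a mean per group over the 18 arrays, 12 residual degrees of freedom, and Benjamini-Hochberg adjustment over the 35557 probe sets. The fit was tested on simulated data. Of the lists, Rhod and Ephb2 had no such probe set.

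The members and all gene lists were chosen with earlier results of these data known. The text names all 9 plexins, up to 4 called genes of each role of a list per comparison by size of difference, and the 5 symbols most like Plxna4. A gene was called at an adjusted p under 0.05. Alternatives were other scalings, filters and priors, the compared arrays alone, a replicate block, Student's test and each array left out. Replicate numbers did not pair the arrays: of 45 same-number pairs, 6 correlated over 0.1 in their deviations from the group means (range -0.276 to 0.171). No 2 arrays were identical, and the precision is limited by the 3 arrays per group.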

Additional observations from a re-analysis of the deposited data

Results flagged for a closer look

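Rnd3, a member of the pathway list, was singled out because its heat effect differed between kinds of cell by the direct test: the difference in heat effect, SSBP1-KD minus SCR, was -0.41 on the log2 scale (SE 0.082; limma, adjusted p = 0.0472). Rnd3 was read at 10.74, 10.73 and 10.76 in SCR Cont and at 11.20, 11.36 and 11.28 in SCR HS, and at 10.50, 10.71 and 10.57 in SSBP1-KD Cont and 10.70, 10.70 and 10.78 in SSBP1-KD HS. The heated SCR arrays lay above every unheated one by more than their own spread, and the SSBP1-KD arrays overlapped. The matching difference for HSF1-KD minus SCR was -0.37 and missed the threshold (adjusted p = 0.107). No gene of the pathway list passed in the SSBP1-KD comparison in 16 of the 18 fits that left out 1 array.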

How the results depend on the processing

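The depth of the evidence is 3 arrays per group and 1 probe set per plexin, so no second probe set could be tried, and signal over background was not analysed here. The alternative that used brighter probe sets only dropped Plxnb3 and Plxnc1. Over all alternatives 0 of 492 values of called plexins changed sign. Of the calls of single plexins, 22 were lost and 8 gained over all alternatives. The replicate block changed no count of plexins called: it left 2 in heated SCR, 4 in heated HSF1-KD, 8 between the knockdowns in Cont and 5 in HS. It left the Plxna4 differences at -1.54, -1.56, -2.11 and -1.93. Of the pathway genes it kept 0 in the difference in heat effect SSBP1-KD minus SCR, against 1 without it.

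Under the methods' t-test 1 plexin was called for heat in SCR. Its form for a difference in heat effect, an unmoderated linear contrast, called 1 in SSBP1-KD minus SCR. There brighter probe sets only gave 2 and a trended and robust prior 1. The methods' t-test called 9 pathway genes for heat in SCR, 11 for heat in HSF1-KD, 0 for heat in SSBP1-KD, 0 for the SSBP1-KD difference in heat effect, 17 between the knockdowns in Cont, 13 and 15 in HSF1-KD against SCR in Cont and HS, and 20 in SSBP1-KD against SCR in Cont. With only the arrays compared, the pathway counts were 7 for heat in SCR, 0 for heat in SSBP1-KD, 0 for the SSBP1-KD difference in heat effect and 22 in SSBP1-KD Cont against SCR. With brighter probe sets only they were 10 for heat in SSBP1-KD, 1 for the HSF1-KD difference in heat effect and 2 for that of SSBP1-KD; quantile normalization and the trended prior gave 1 for HSF1-KD, and equal array medians 0 for SSBP1-KD. The cause was not tested.

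With 1 array left out, the pathway counts ranged from 9 to 14 for heat in SCR, from 2 to 7 for heat in SSBP1-KD and from 0 to 2 for the SSBP1-KD difference in heat effect. The count of plexins called ranged from 0 to 1 for the SSBP1-KD difference in heat effect, from 7 to 8 between the knockdowns in Cont and from 3 to 6 in HS. The Plxna4 difference from SCR ranged from -1.63 to -1.40 in HSF1-KD Cont, -1.78 to -1.45 in HSF1-KD HS, -2.20 to -1.97 in SSBP1-KD Cont, and in SSBP1-KD HS it ranged from -2.15 to -1.82.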
